A study of Mus musculus with 2 samples.

Results

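Chromosome 3 had the lowest 5-hydroxymethylcytosine (5hmC) signal of the 19 autosomes in mouse kidney, and its regions are described here along the chromosome. It was chosen by its measured ratio of hMeDIP to input fragments, which was 0.848 (95% interval 0.845 to 0.851), so that its place below the other autosomes is a description and was not tested. The nearest autosome, chromosome 1, stood at 0.885 (0.883 to 0.888), chromosome 16 at 0.899 (0.895 to 0.903), and the highest, chromosome 19, at 1.24 (1.234 to 1.247). The members are the 4373 peaks that the authors' list places on chromosome 3, of 92654 peaks in all, and the 1551 of its fixed 100 kb bins that held 50 or more input fragments, of 23419 such bins on all autosomes.

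5hmC is made from 5-methylcytosine by the TET dioxygenases, as the first step of active demethylation, and in differentiated tissues it is known to be rich over transcribed genes and active regulatory sequence and poor over silent, gene-poor sequence. In hMeDIP (hydroxymethylated DNA immunoprecipitation) an antibody against 5hmC pulls down the DNA fragments that carry the mark, and an input library made without antibody measures how the same DNA is covered. Because the antibody pulls down by the density of the mark, the readout is relative and does not give a percentage of modified cytosines.

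The DNA came from kidneys of male C57BL/6 mice aged 6 weeks, and the groups are 1 hMeDIP library made with an Active Motif antibody against 5hmC and 1 input library without antibody. How many animals gave the DNA, or whether kidneys were pooled, is not given in the sources used here, and whole kidney mixes tubular, glomerular, vascular and immune cells, so that a low value can be a low level in all cells or a high level in few. The hMeDIP library held 614192 fragments on chromosome 3, of 11424027 in all, and the input library 527211 of 8316507. With 1 library per group no spread between replicates can be given. The intervals given are at 95% and stand for counting error alone, since PCR copies cannot be told from independent molecules without molecular identifiers.

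A ratio here is the share of all hMeDIP fragments that lie in a region over the share of all input fragments that lie there, and a log2 ratio of 0 is the mean of these libraries over the genome. A 100 kb bin was called low at a log2 ratio of -0.5 or less, high at 0.5 or more, in both cases only when its interval excluded 0, and otherwise middle. Chromosome 3 spanned 1596 bins, of which 45 were left out for low input: 30 had no input fragment and 15 had fewer than 50, and 30 of the 45 lay in the first 3 Mb of the chromosome. The bins nearest to that limit are given as a description. Just inside it, 31500001 to 31600000 had 25 hMeDIP and 50 input fragments and 64200001 to 64300000 had 34 and 50. Just outside it, 93600001 to 93700000 had 35 and 47 and 91400001 to 91500000 had 14 and 43. All 4373 peaks lay in tested bins. Whether the authors called the peaks on this hMeDIP library alone, and against this input, is not given, so peak counts, folds and deserts are those of their list.

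Low bins made up most of chromosome 3. Of its 1551 bins, 901 (58.1%) were low, against a background of 47.1% of 21868 bins on the 18 other autosomes, and 241 (15.5%) were high, against a background of 23.4%. Both shares stood at the end of the range of all autosomes: the share of low bins ran from 33.8% on chromosome 11 to 54.7% on chromosome 16 over the others, and that of high bins from 16.3% on chromosome 1 to 34.5% on chromosome 11. The ratio that chose the chromosome is the same contrast, so these shares describe it and do not support it. Scaled to the fragments outside peaks, which adds 0.40 to every log2 ratio, the shares on chromosome 3 were 47.4% low and 26.0% high, and it still had the highest share of low bins and the lowest share of high bins of the 19 autosomes.

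**Figure D1:**
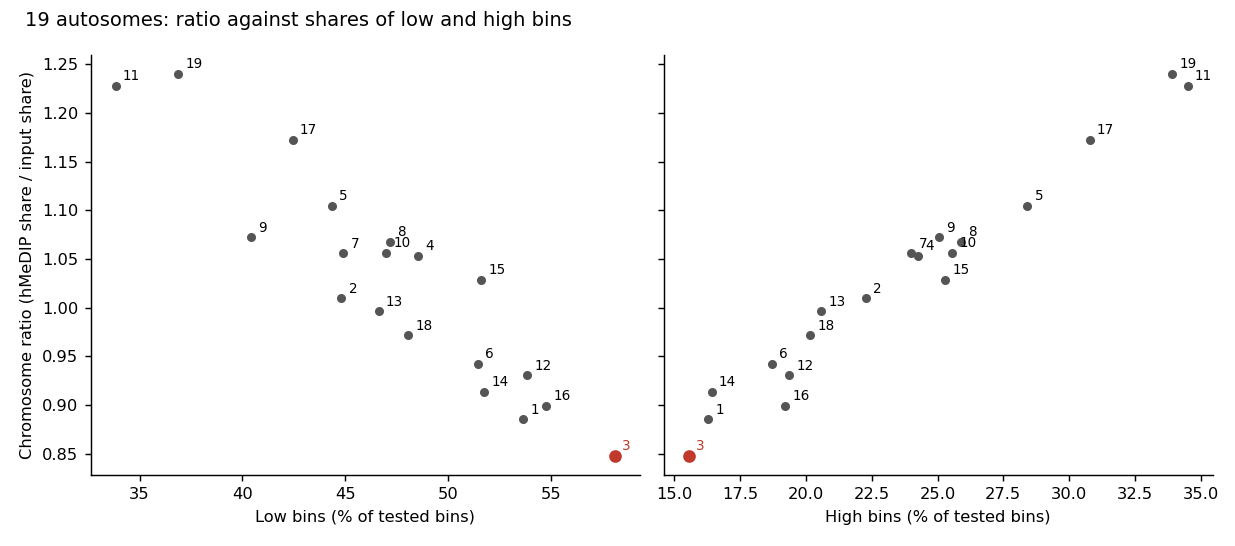
Ratio of each autosome (vertical axis, hMeDIP share over input share) against its share of low bins (left) and of high bins (right), both in percent of tested 100 kb bins, with 1 point per autosome and chromosome 3 in red. Chromosome 3 lies at 58.1% low and 15.5% high bins, at the end of both axes.

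Across the 19 autosomes, which come from the same libraries and whose bins make up their ratios, the ratio followed the share of high bins (Pearson's r 0.98, Spearman's rho 0.97) and the share of low bins (-0.92 and -0.90) more closely than the level of the low bins (0.42 and 0.34) or of the high bins (0.59 and 0.63). The level of all bins that were not low, middle and high together, lay between these, at 0.81 and 0.81. The cuts that define the classes confine their levels, which limits how closely a level can follow the ratio. Without chromosome 3, r was 0.98 for the share of high bins and -0.91 for that of low bins.

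Whether chromosome 3 is low because its bins are low or because more of them are low was asked by splitting its difference from the other autosomes. The pooled ratio over tested bins was 0.848 on chromosome 3 and 1.03 on the 18 other autosomes, a difference of -0.178. Of this, -0.147 (83.0%) came from how the input fragments were spread over low, middle and high bins, and -0.0301 (17.0%) from the ratios within these classes. Given the class shares of chromosome 3 and their own class levels, the other autosomes would stand at 0.875. Given their own shares and the levels of chromosome 3, they would stand at 0.992.

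The class shares moved at both ends. Low bins held 54.8% of the input fragments of chromosome 3, against 44.0% on the other autosomes, and high bins 16.8%, against 24.5%. Measured about the mean of both pooled ratios, the surplus of low bins made up 32.3% of the difference and the shortage of high bins 49.2%. In this comparison the missing high bins weighed more than the added low bins. Against chromosome 1 alone the order was the other way, with 63.0% from low and 20.5% from high bins. Against chromosome 16 alone the parts were 20.6% and 73.1%. This weighing was not recomputed under other settings. The class levels differed little. The pooled ratio of low bins was 0.402 on chromosome 3 and 0.414 on the others, that of middle bins 1.02 and 1.03, and that of high bins 2.01 and 2.12, with the high bins giving 11.9% of the difference through their level. Among the 19 autosomes the level of low bins on chromosome 3 ranked 5 from the bottom and that of high bins 4.

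**Figure D2:**
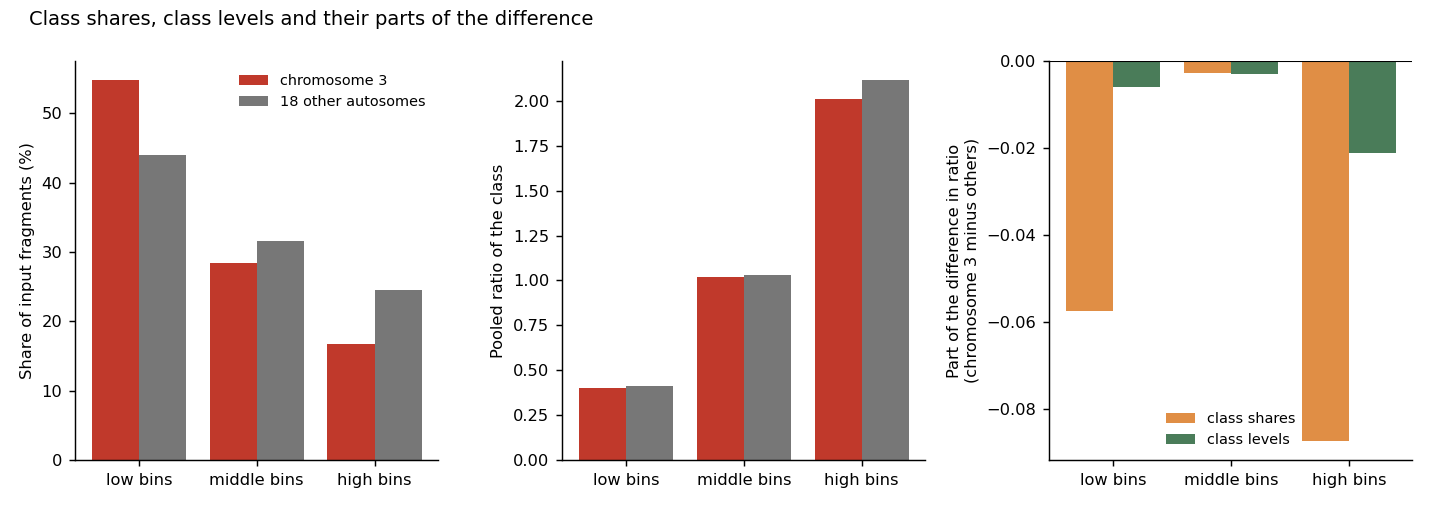
Share of input fragments (left, percent) and pooled ratio (middle) of low, middle and high bins on chromosome 3 (red) and on the 18 other autosomes (grey), and the part of the difference in ratio that each class gave through its share or its level (right, chromosome 3 minus others). The largest bars on the right are the shares of high bins (-0.0873) and of low bins (-0.0573).

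The split depends on how finely bins are classed, because classes cut from the ratio fix most of their own level. With only low and not low bins the class shares gave 63.5% of the difference, and with 6 classes 95.3%, both chosen after seeing the data. In the coarser split, the bins that were not low had a pooled ratio of 1.39 on chromosome 3, against 1.51 on the others. Of these bins 37.1% were high on chromosome 3, rank 3 from the bottom of the 19 autosomes, with a median of 43.0% over the other 18.

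Percentiles of the log2 ratio use no classes, but they cannot separate a downward shift of bins from a larger share of low bins. The difference of chromosome 3 from the other autosomes was small at the lower end of the bins, at -2.09 against -2.03 for the 5th percentile of the log2 ratio. At the 25th percentile chromosome 3 stood at -1.58, against -1.38 on the others. The difference was widest at the median, at -0.82 against -0.39. Above the median chromosome 3 was lower as well, at 0.16 against 0.45 for the 75th percentile and 1.06 against 1.33 for the 95th. The highest bin of chromosome 3 stood at 2.10.

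**Figure D3:**
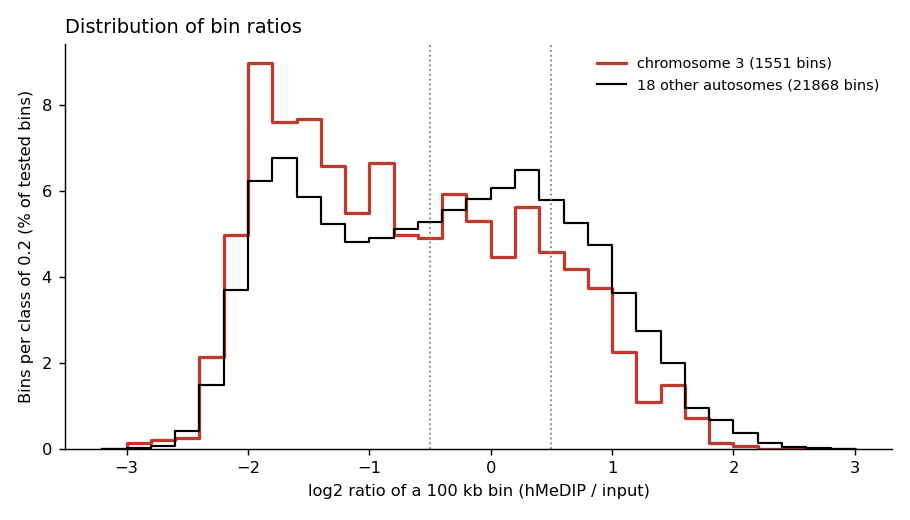
Distribution of the log2 ratio over tested 100 kb bins in classes of 0.2 (horizontal axis, left edge of each step at the lower bound of its class), as percent of the bins of chromosome 3 (red) and of the 18 other autosomes (black), with dotted lines at -0.5 and 0.5. Chromosome 3 has more bins between -2.2 and -0.8 and fewer above 0.

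Against its 2 nearest neighbours in rank the difference lay in the class shares as well. Chromosome 1 had 53.6% low and 16.3% high bins, and class shares gave -0.0381 of a difference of -0.0373, with a small class level part of the opposite sign (0.000751). Chromosome 16 had 54.7% low and 19.2% high bins, and class shares gave -0.0461 of -0.0510. The pooled ratio of bins that were not low was 1.39 on chromosome 3 and 1.36 on chromosome 1.

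Input density moved with the ratio and is given beside it. Low bins of chromosome 3 had a median of 329 input fragments, middle bins 373 and high bins 370, and the lowest of 5 classes of input density held 23.7% of the bins of chromosome 3, against 19.7% of the bins of the other autosomes. Within each of these 5 classes chromosome 3 had the larger share of low bins, from 89.1% against 80.7% in the lowest class to 37.5% against 32.9% in the highest. At the input densities of chromosome 3 the other autosomes would have 49.0% low bins. Their own share was 47.1% and that of chromosome 3 was 58.1%. The classes are wide, with the lowest running from 50 to 302 fragments, and input is also the denominator of the ratio. The part of input density in the result was not tested beyond these values.

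Along the chromosome, 10 Mb stretches ranged in ratio between 0.461 (0.453 to 0.469) and 1.19 (1.17 to 1.201). The lowest was 40000001 to 50000000, where 89.0% of bins were low, followed by 70000001 to 80000000 at 0.470 (87.0% low), 10000001 to 20000000 at 0.479 (83.7% low) and 110000001 to 120000000 at 0.530 (80.8% low). These 4 stretches held 7.1 to 10.2 peaks per Mb. At the other end, 100000001 to 110000000 stood at 1.19 with 23.0% low bins, 80000001 to 90000000 and 50000001 to 60000000 both at 1.13 with 31.0% and 33.0% low bins, and 90000001 to 100000000 at 1.08. The 3 highest stretches held 45.9 to 47.2 peaks per Mb. Neither end of the chromosome was high: the first 10 Mb stood at 0.715 (0.701 to 0.730) and the last stretch, from 150000001, at 0.748 (0.737 to 0.760). Adjacent bins of chromosome 3 had alike log2 ratios (correlation 0.88 in this pair of libraries), those 1 Mb apart less so (0.39), and those 5 Mb apart hardly at all (0.02).

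**Figure D4:**
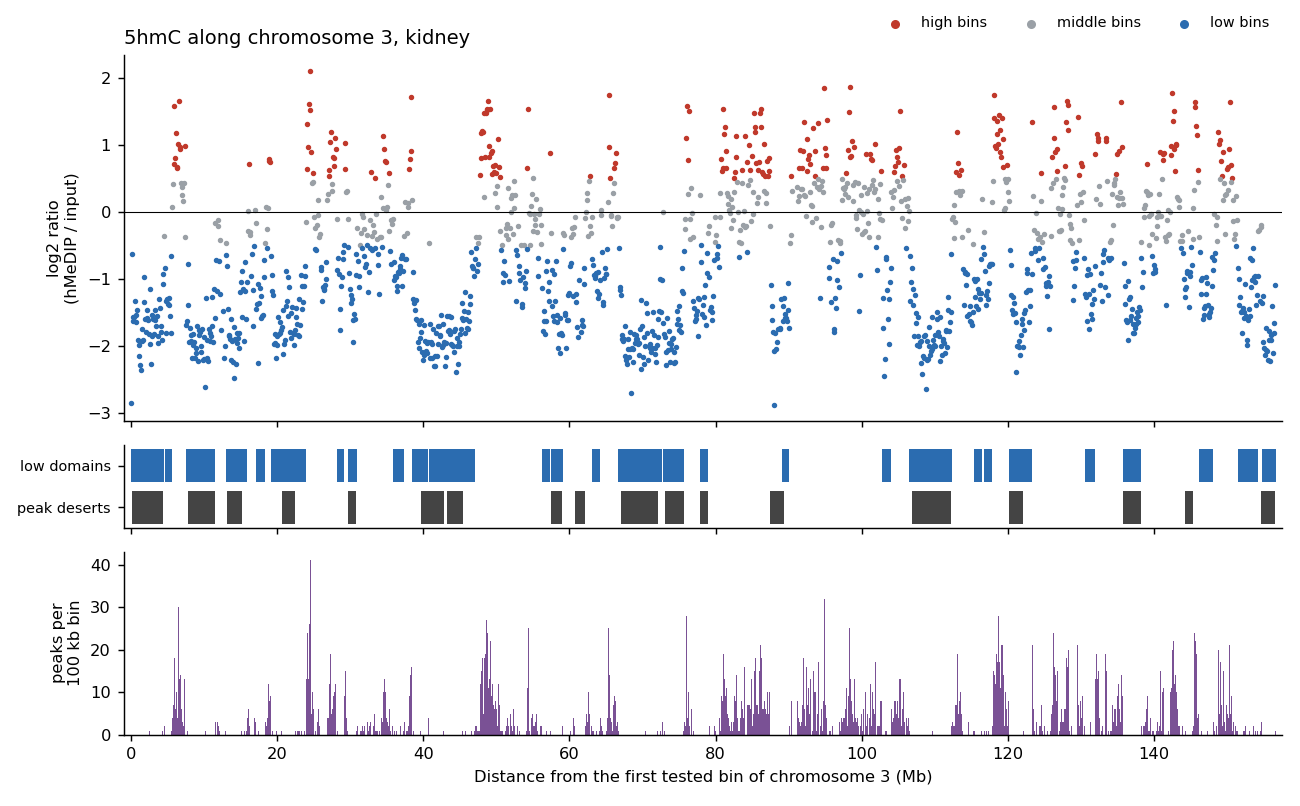
Log2 ratio of each tested 100 kb bin of chromosome 3 (top), low domains and peak deserts of 1 Mb or more (middle) and peaks per bin (bottom), against the distance in Mb from the first tested bin. The long blue blocks are the low domains of up to 6.3 Mb, and the red bins lie in short runs between them.

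Low domains, the runs of 10 or more neighbouring low bins, covered 67.8 Mb of chromosome 3 in 29 runs. That was the highest number of any autosome, where the others had 5 to 26, and 43.7% of the tested bins lay in them, also the highest share, against 17.8% to 41.3%. The domains were many rather than deep or very long. Their pooled ratio, 0.365, lay next to the 0.367 of the others, and the longest one was 8 in rank by length among the longest domains of the 19 autosomes. Outside its low domains chromosome 3 was the lowest autosome as well, at 1.18 against 1.33 for the others. The bins outside low domains also enter the ratio that chose the chromosome, so this value describes its place and does not support it.

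The longest low domain spanned 43800001 to 50100000 (6.3 Mb). It had 8243 hMeDIP fragments over 18849 in input, a log2 ratio of -1.65 (-1.69 to -1.61) and 7 peaks. The second, 69700001 to 75700000 (6.0 Mb), was lower, at -1.75 (-1.79 to -1.71) with 5 peaks. The third, 22100001 to 26900000 (4.8 Mb), stood at -1.52 (-1.56 to -1.48) and held 10 peaks. The fourth, 3000001 to 7500000 (4.5 Mb), opened the mapped sequence at -1.64 (-1.69 to -1.59). The fifth, 10500001 to 14500000 (4.0 Mb), was the deepest of all 29, at -1.82 (-1.87 to -1.77), and held 2 peaks in 4 Mb. Longer domains tended to be deeper (Spearman's rho -0.72 over 29 domains of 1 chromosome). A run ends at the first bin that is not low, so shallow stretches break more easily and the rule itself favours this relation. The whole set ranged from -1.82 to -0.86 with a median of -1.38.

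Several long domains were parts of still longer stretches. When single bins that were not low were bridged, 41500001 to 50600000 became 1 stretch of 9.1 Mb with 88 low, 3 middle and 0 high bins and a log2 ratio of -1.55 (-1.58 to -1.52). Likewise 69700001 to 78700000 became 1 stretch of 9.0 Mb, in which 1 middle bin interrupted 89 low bins, at -1.69 (-1.73 to -1.66). Another, 109500001 to 115300000 (5.8 Mb), was interrupted by 1 bin without enough input. The low domains of chromosome 3 then covered 83.8 Mb.

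Peak deserts, stretches of 1 Mb or more without a listed peak, overlapped the low domains but took a share of the chromosome well inside the range of the other autosomes. There were 23 deserts with 44.5 Mb in all, or 27.9% of its length, which ranked 7 of 19 autosomes (the others ranged from 11.6% to 37.5%). The longest desert of chromosome 3, at 3.40 Mb, was shorter than the median longest desert of the other autosomes (4.84 Mb). Of the desert length 89.5% lay in low domains, which held 43.7% of all tested bins, and of the domain length 58.7% lay in deserts. Of the 417 whole bins inside deserts, 416 were low and 0 were high, against 58.1% low and 15.5% high over all tested bins of chromosome 3. Peaks were listed for high signal, so that low bins and overlap with low domains follow largely from how deserts are defined.

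The longest desert was 70066488 to 73461555, with 3591 fragments in hMeDIP and 10288 in input, at a log2 ratio of -1.98 (-2.03 to -1.92), inside the second longest low domain. Next came 109873564 to 112650934 (2.78 Mb) at -1.87 (-1.93 to -1.81), 76054692 to 78687735 (2.63 Mb) at -1.73 (-1.79 to -1.67), 112651556 to 115246788 (2.60 Mb) at -1.78 (-1.84 to -1.72) and 138733907 to 141257899 (2.52 Mb) at -1.36 (-1.42 to -1.31). The last of these was the least depleted of the 5, and the low domain inside it, 138800001 to 141200000, is 1 of 2 domains with no peak.

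Single peaks stood between deserts in 4 places. The one of highest score (188.24), 112650935 to 112651555 (621 bp), separated the deserts of 2.78 and 2.60 Mb and had 30 hMeDIP and 0 input fragments, which is at least 7.28-fold higher in hMeDIP than in input when set against a floor of 3 input fragments, and the lower 95% limit of its ratio was 5.56. The peak at 73461556 to 73462255 parted the longest desert from one of 1.62 Mb and had 13 hMeDIP fragments and 1 input fragment, a ratio of 9.46 (1.42 to 402). The peaks at 13256575 to 13258080 and 5573632 to 5574908 had ratios of 3.28 (1.497 to 8.16) and 3.06 (1.12 to 10.4). All 4 intervals overlap, the first having no upper limit, and the ratios rest on few fragments. The 4 peaks were listed because their signal was high.

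Peaks inside low domains were few and short. The 29 domains held 102 of the 4373 peaks (2.33%), with a median width of 832.5 bp, against 1144 bp for the peaks elsewhere on chromosome 3. Their median fold over input was 4.83, with 1 fragment added to each library, against 4.22 elsewhere, and their median score was 73.91, against 83.41. They rested on a median of 19 hMeDIP and 2 input fragments, against 27 and 4, and since only peaks of high signal were listed, these folds do not compare the strength of marked sites. The peak of the highest score there was 156095998 to 156097862, where 85 fragments in hMeDIP over 10 in input gave a ratio of 6.19 (3.21 to 13.4). It lay in the domain with the most peaks, 154400001 to 157200000, which held 16. Of the 901 low bins, 769 held no peak, and of the 241 high bins each held at least 1. Peaks were listed for high signal and bins were classed by signal, so these counts follow largely from both definitions. Low bins held 0.171 peaks each and high bins 12.6, against 0.180 and 13.2 on the other autosomes.

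**Figure D5:**
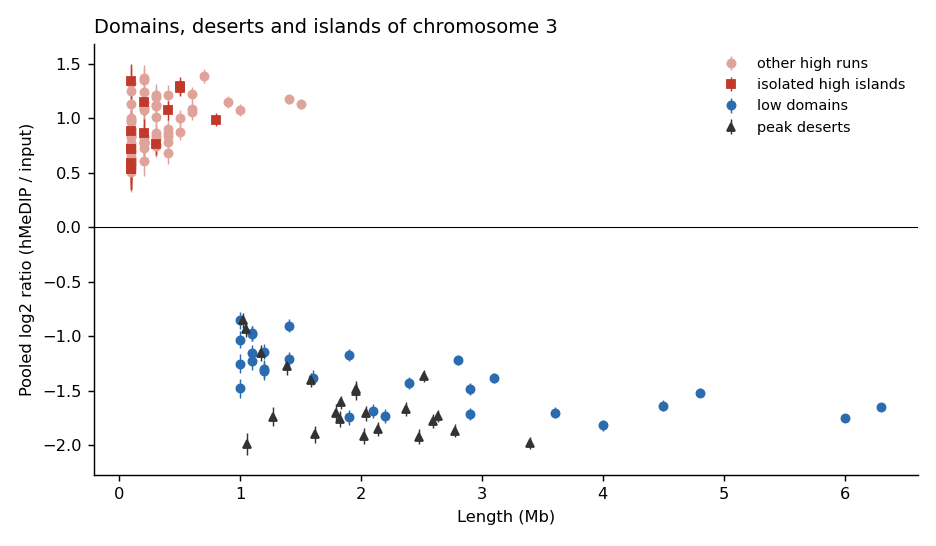
Length (horizontal axis, Mb) and pooled log2 ratio (vertical axis, with 95% counting intervals) of the low domains, peak deserts, isolated high islands and other high runs of chromosome 3, 1 point each. High runs end at 1.5 Mb while low domains reach 6.3 Mb, and the longer low domains tend to lie lower, which the rule for runs favours.

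High sequence lay in short runs. The 241 high bins formed 91 runs, of which 42 were single bins and 3 reached 1 Mb, and the longest run of chromosome 3, 51300001 to 52800000 (1.5 Mb), had 17304 fragments in hMeDIP and 5750 in input, a log2 ratio of 1.13 (1.09 to 1.17) and 224 peaks. The run at 121000001 to 122400000 (1.4 Mb) also held 224 peaks, at 1.18 (1.13 to 1.22). Then followed 8800001 to 9800000 (1.0 Mb) at 1.08 (1.02 to 1.13), 145200001 to 146100000 (0.9 Mb) at 1.15 (1.10 to 1.21) and 83700001 to 84500000 (0.8 Mb) at 0.99 (0.93 to 1.05). The longest high run of the other autosomes ranged from 1.1 to 3.8 Mb, with a median of 1.7 Mb.

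High islands, runs of high bins with no other high bin within 1 Mb, numbered 14 and held 36 bins, 14.9% of the high bins. The highest was a single bin, 126300001 to 126400000, with 1402 fragments in hMeDIP and 403 in input, 21 peaks and a log2 ratio of 1.34 (1.18 to 1.504). It touched the end of the 3.1 Mb low domain 123200001 to 126300000, whose last bin stood at -0.93 (-1.17 to -0.70) with 264 hMeDIP and 367 input fragments. Next were 130800001 to 131300000 at 1.30 (1.22 to 1.38) with 78 peaks, and 148500001 to 149000000 at 1.28 (1.21 to 1.35) with 86 peaks. The island at 57200001 to 57400000 stood at 1.15 (1.03 to 1.27), 3.7 Mb after the high bin before it. The fifth, 41000001 to 41400000, stood at 1.07 (0.99 to 1.16) with 47 peaks, and the 9.3 Mb that followed it, the longest stretch beside any island, held no high bin.

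Direct contact of high and low bins was the exception. Of the 58 ends of low domains, 48 faced a middle bin, 5 a high bin, 4 an untested bin and 1 the end of the chromosome. Of the 182 ends of high runs, 169 faced a middle bin and 12 a low bin. The steepest of these 12 steps were at 126300001, named above, and at 136300001, where 136300001 to 136400000 stood at 1.10 (0.93 to 1.27) and the bin before it at -1.12 (-1.37 to -0.87).

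The 5 highest bins of chromosome 3 were rich in peaks, which follows largely from listing peaks for high signal. The top bin, 27500001 to 27600000, had 2400 fragments in hMeDIP over 408 in input, or 2.10 on the log2 scale (1.95 to 2.25). It lay in the high run 27000001 to 27700000, close after the low domain that ended at 26900000. It held 41 peaks, a number that only 1 autosomal bin, on chromosome 14 with 42, exceeded. Peaks covered 72.7% of this bin and held 91.2% of its hMeDIP fragments, and outside them its log2 ratio was 0.66 (0.30 to 1.02). The others were 101300001 to 101400000 at 1.87 (1.71 to 2.02), 97800001 to 97900000 at 1.86 (1.69 to 2.02) with 32 peaks, 145400001 to 145500000 at 1.77 (1.62 to 1.93) and 68300001 to 68400000 at 1.75 (1.59 to 1.91). Peaks covered 47.6% to 53.3% of these 4 bins, and outside them the bins stood at 0.59 to 0.82.

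Like 769 of the 901 low bins, the 5 lowest bins held 0 peaks. They were 90900001 to 91000000 with 19 hMeDIP and 102 input fragments at -2.88 (-3.67 to -2.17), 3000001 to 3100000 at -2.86 (-3.24 to -2.50), 71400001 to 71500000 with 68 and 322 at -2.70 (-3.10 to -2.32), 111700001 to 111800000 with 61 and 279 at -2.65 (-3.08 to -2.25), and 13100001 to 13200000 with 66 and 296 at -2.62 (-3.03 to -2.23). Their intervals overlap, so their order is not settled by the counts, and the first rested on less input than usual, since the median bin of chromosome 3 held 350. The other 4 lie in low domains described above.

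Peaks were sparse on chromosome 3. Their density, 27.4 per Mb, was the lowest of the autosomes (the next was chromosome 1 at 28.1) and they covered 3.57% of the chromosome, against 5.16% on the others. In peaks the ratio was 5.11, against 5.28 on the other autosomes, and ranked 4 from the bottom, over sites that were listed for their high signal. Outside peaks the ratio was 0.674 on chromosome 3, against 0.772 on the others, and the lowest of 19. Most fragments lie outside peaks, so this largely repeats the ratio that chose the chromosome and does not support it. Peaks held 23.7% of the hMeDIP fragments of chromosome 3, against 29.0% on the others, and 3.93% of its input fragments, against 5.62%. Within a class of bins peaks were about as dense as elsewhere, with 12.6 peaks per high bin, 2.88 per middle bin and 0.171 per low bin on chromosome 3, against 13.2, 2.86 and 0.180 on the others.

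The peaks with the highest scores, the score being the authors' own, were broad. At the top stood 121138044 to 121153332, also the widest of chromosome 3 at 15289 bp, where 559 fragments in hMeDIP over 58 in input gave a ratio of 7.02 (5.35 to 9.36), inside the 1.4 Mb high run. The second, 41389044 to 41396752 (7709 bp), had a ratio of 7.82 (5.40 to 11.7) and lay in the last bin of the island before the 9.3 Mb without a high bin, just ahead of the low stretch that began at 41500001. The third, 108214778 to 108218037 (3260 bp), had the highest ratio of the named peaks with input fragments, 231 fragments in hMeDIP over 10 in input, or 16.8 (8.98 to 35.5), and the fifth, 108208509 to 108212990, lay beside it at 9.24 (5.26 to 17.7). The fourth, 52098798 to 52105582 (6785 bp), stood at 5.58 (3.93 to 8.14) inside the longest high run. Of the 5 widest peaks the remaining 2 were 132521693 to 132528378 (6686 bp) at 4.97 (3.35 to 7.62) and 27565428 to 27571790 (6363 bp) at 6.01 (3.92 to 9.60), the second of them in the top bin. Peaks of 5 kb or more numbered 11, all in high bins, which held 69.5% of all peaks of chromosome 3. A wide peak also adds fragments to its own bin, which helps to make that bin high.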

How the data were processed

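Genomic DNA of mouse kidney was measured in 1 hMeDIP and 1 input library. CASAVA, Bowtie 1.0.0 and the build mm9 were used per the submitters' processing notes, and no source used here gives their settings. The authors deposited, per library, lines of mapped positions of 350 bp with a count of reads each, and every line was taken as 1 fragment. The authors' peak list gives a score per peak, from MACS per the file headers, whose version, library, control and threshold no source used here gives, and it was used only to rank and filter peaks. Fragments (11424027 hMeDIP, 8316507 input) were assigned by midpoint. Ratios carry exact conditional binomial (Clopper-Pearson) 95% intervals. The median tested bin of chromosome 3 held 279 hMeDIP and 350 input fragments. Calls were checked on simulated counts with counting error alone and changed bins placed at random, unlike these data, where adjacent bins were alike. Runs and the split of the difference were checked on small made-up examples, which test the arithmetic and not the results. The split multiplies each class's difference in share by its mean level, and its difference in level by its mean share.

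Named regions are, on chromosome 3, the 5 highest peaks by score, the 5 widest, the 5 highest and lowest bins, the 5 longest low domains, deserts and high runs, and the 5 highest islands. Peaks between deserts or in low domains, joined domains and steps between classes were singled out after their values were seen. Members, lists and tests were chosen with earlier results of these data known. Alternatives were other scalings, read weighting, fragments outside peaks, input filters, bin sizes, thresholds, peak sets and pseudocounts. Coordinates are 1-based on mm9. Gene positions and sequence on mm9 were not used here. Python 3.11.15, numpy 2.4.6, pandas 2.3.3 and scipy 1.17.1 were used.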

Additional observations from a re-analysis of the deposited data

Results flagged for a closer look

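The number of reads per position was not used in the comparisons. Positions of chromosome 3 with more than 1 read made up 1.23% (1.199 to 1.25) in hMeDIP and 0.307% (0.292 to 0.322) in input, and the higher share in hMeDIP is why this measure is listed. The hMeDIP share of chromosome 3 was the lowest but one of the 19 autosomes. No position of chromosome 3 held more than 12 hMeDIP or 4 input reads. Counting every read in place of every position left its ratio at 0.846.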

How the results depend on the processing

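No paired analysis was possible because each group holds 1 library. Under each of the alternatives tried for them, chromosome 3 had the lowest ratio, the highest share of low bins, the lowest share of high bins and the lowest peak density of the 19 autosomes. Scaling and centring multiply the ratio of every chromosome by the same number, so its rank could not change under them. Of 69 recomputed values 24 moved. A ratio, a share of bins or a median fold was counted as moved outside the 95% interval of its main value. The other values were counted as moved beyond a fixed fold change. The count therefore mixes unlike limits and does not measure stability. Only the composition and level parts of the difference can change sign, and neither did in 12 alternatives each. Scaling to the fragments outside peaks gave a ratio of 1.12, 47.4% low and 26.0% high bins, a level part of -0.0499 and a median peak fold of 5.59. Centring on the median bin, which lay at -0.42, gave 1.13, 46.6%, 26.4% and a level part of -0.0508. Fragments outside peaks alone gave a ratio of 0.889, 48.7% low and 18.9% high bins and a level part of -0.0157. Without the first 5 Mb of each chromosome the ratio was 0.853. A threshold of 1 gave 44.0% low and 5.74% high bins and 45 Mb in low domains. The level part was -0.0648 with 2 classes and -0.00831 with 6, both added after seeing the data, and the class shares gave 63.5% to 95.3% of the difference over all alternatives. With the 46327 peaks of highest score, deserts covered 71.7 Mb, density was 13.0 per Mb and median fold 4.92. A pseudocount of 5 put the median fold at 2.60 and one of 0.5 at 4.67, and chromosome 3 ranked 1 and 2 from the bottom of the 19 autosomes there, against 4 with a pseudocount of 1. Without replicates, differences between animals cannot be seen, and single peaks and bins of low input are imprecise.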

Other observations

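Gene content was compared by chromosome only, from the RefSeq table of GRCm38, since it is on another build than the files. Chromosome 3 carried 983 protein-coding genes or 6.15 per Mb in that table, rank 3 from the bottom of the 19 autosomes, with a median of 7.87 over the others. Over the 19 autosomes, which share both libraries, gene density and 5hmC ratio were related (Pearson's r 0.78, Spearman's rho 0.81), and r was 0.77 without chromosome 3. In the RefSeq promoters, 300 bases around each gene start, chromosome 3 averaged 11.9 CpG, rank 4 from the bottom of the 18 autosomes compared, against a median of 12.8 over the other 17.

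Several gene families have members on this chromosome in that table, which was counted by chromosome only. The table placed on it 21 of 21 Lce genes and 14 of 14 Sprr genes, which code for precursors of the cornified envelope of skin, 7 of 7 Amy genes, the amylases, and 15 of 15 genes whose names start with S100a, calcium-binding proteins. It also placed there 6 of 7 Adh genes, 5 of 10 Gbp genes and 2 of the 1110 Olfr genes, the olfactory receptors. Among single genes it carries Tet2, which codes for an enzyme that makes 5hmC, and Egf, a growth factor made in the distal nephron. No 5hmC value is given for these genes, because their mm9 positions were not used here.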
